A study of Mus musculus with 38 samples.

Results

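Hba-a1, Gata1 and Car2 are 3 genes that red cell precursors use at different stages, and they are followed here in the spleen of mice given cyclophosphamide. They were chosen by name from a probe-to-gene table, with their behaviour in these same mice already known: a globin gene whose ratio moved little, set against red cell genes that fell. The table pairs 4 of the 13443 probes with them, 1 for Hba-a1, 1 for Gata1 and 2 for Car2, which makes 3 of 9616 named genes. All 4 probes had values in enough mice to be tested. Differences of these genes between the groups are therefore given as a description, with standard errors and no p-value.

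The mice were of the DBA/2 strain, and spleen cells were taken from 5 untreated mice and from 4, 5 and 5 mice at 1, 2 and 5 days after a dose of 83 mg/kg cyclophosphamide, an alkylating drug most toxic to dividing cells. Neither age nor sex is given in the labels. Each mouse was measured on 2 technical arrays, 38 in all, with spleen RNA in the red dye and, in the green dye on every array, the RNA of 1 common pool of DBA/2 bone marrow cells. That pool is labelled as untreated in one field and as treated with cyclophosphamide in another, and it cancels in every comparison between groups. Every value is a log2 ratio of spleen over this pool. The direction of the ratio was checked in the untreated mice: Ms4a1, which encodes the B cell antigen CD20, had 1.57 ± 0.13 (SE, n = 5) and Ltf, which encodes lactoferrin of neutrophil granules, had -3.63 ± 0.30, so the B cell gene was above the marrow pool and the neutrophil gene below it. The log2 ratios of the 2 arrays of a mouse correlated across probes at 0.581 to 0.962; the lowest were 0.581 (untreated, mouse 4), 0.651 (untreated, mouse 2) and 0.673 (day 5, mouse 5). An array gave values for 5829 to 10407 probes.

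The adult mouse spleen, unlike the human one, normally makes red cells beside the marrow and does so more under anaemic stress. Gata1 encodes the zinc finger factor that binds GATA sequences in red cell genes and drives the last stages of red cell formation together with its cofactor, the product of Zfpm1. Hba-a1 encodes the alpha chain of adult haemoglobin, whose messenger RNA is long-lived and abundant in reticulocytes. Car2 encodes carbonic anhydrase 2, the fast enzyme that lets red cells carry carbon dioxide as bicarbonate; it is also made in osteoclasts, kidney and other tissues.

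The 250 bases before the RefSeq start of Hba-a1, Gata1 and, for comparison, Alas2 (which encodes the enzyme that starts heme synthesis in the red cell line) are shown because Gata1 encodes a factor that reads GATA letters, with AGATAA or TGATAA on either strand in capitals. All run 5′ to 3′ along the gene, from the RefSeq promoter table of build GRCm38.p6. Car2 had no entry there, so no window is shown for it.
Hba-a1, chr11:32283422-32283671, plus strand: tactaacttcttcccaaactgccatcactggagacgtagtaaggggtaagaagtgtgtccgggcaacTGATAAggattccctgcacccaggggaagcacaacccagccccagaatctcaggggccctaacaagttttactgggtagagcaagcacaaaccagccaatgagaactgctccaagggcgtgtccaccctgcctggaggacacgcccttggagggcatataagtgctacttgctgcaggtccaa
Gata1, chrX:7967911-7968160, minus strand: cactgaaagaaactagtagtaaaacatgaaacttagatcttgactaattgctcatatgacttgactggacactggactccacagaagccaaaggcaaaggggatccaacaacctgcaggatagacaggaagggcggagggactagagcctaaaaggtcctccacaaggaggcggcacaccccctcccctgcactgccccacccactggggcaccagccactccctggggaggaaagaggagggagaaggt
Alas2, chrX:150547167-150547416, plus strand: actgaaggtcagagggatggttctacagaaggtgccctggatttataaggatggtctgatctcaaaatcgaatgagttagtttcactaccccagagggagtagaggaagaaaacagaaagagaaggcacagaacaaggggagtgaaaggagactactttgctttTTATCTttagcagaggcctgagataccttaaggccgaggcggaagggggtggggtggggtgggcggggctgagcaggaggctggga
The Hba-a1 window holds 1 TGATAA, which begins at position -183 from the start, and the Alas2 window holds 1 AGATAA, read on the opposite strand, at position -86. The Gata1 window holds neither. CACCC, searched on both strands, is in all 3 windows: at -167 and -60 in Hba-a1, at -74 and -52 in Gata1, and on the opposite strand at -40, -35 and -30 in Alas2. Among 32851 promoter windows of the same length, 16.6% hold AGATAA or TGATAA on either strand (9.99% and 7.94% hold each) and 52.0% hold CACCC. These matches describe letters in the window and show no binding.

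In that annotation Hba-a1 lies at chr11:32283672-32284486 and its copy Hba-a2 at chr11:32296492-32297310; the promoter windows of the pair share a run of 247 identical bases out of 250. No probe was paired with Hba-a2 alone, and how much of the Hba-a1 signal comes from Hba-a2 was not tested. Gata1 spans chrX:7959260-7976663, so the printed window ends at a start inside the annotated span. Car2 spans chr3:14886269-14900770.

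The Hba-a1 probe kept a nearly constant mean across the 4 groups. In untreated mice 1 to 5 its log2 ratio was -0.70, -0.41, -0.047, -0.43 and -0.73. In the 4 day 1 mice it was -0.36, -0.56, -0.14 and -0.61. Both groups covered nearly the same range, and no day 1 mouse lay below all untreated mice.

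On day 2 the log2 ratio of Hba-a1 was -0.40, -0.31, -0.62, -0.37 and -1.28, and on day 5 it was -0.59, -0.90, -0.46, -0.42 and -0.60. Mouse 5 of day 2 and mouse 2 of day 5 were the only treated mice below all 5 untreated ones. The group means were -0.42 ± 0.22 (SD, n = 4) on day 1, -0.46 ± 0.28 (n = 5) without treatment, -0.60 ± 0.19 (n = 5) on day 5 and -0.60 ± 0.40 (n = 5) on day 2, and no neighbours in that order differed by more than their SDs. As log2 differences from untreated these are 0.047 ± 0.19 (SE) on day 1, -0.13 ± 0.18 on day 2 and -0.13 ± 0.18 on day 5. The 95% intervals, -0.34 to 0.44, -0.50 to 0.23 and -0.50 to 0.24, do not show that the level stayed the same. The sign on day 1 and on day 2 changed under some alternatives (-0.047 to 0.15 and -0.24 to 0.062).

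**Figure D1:**
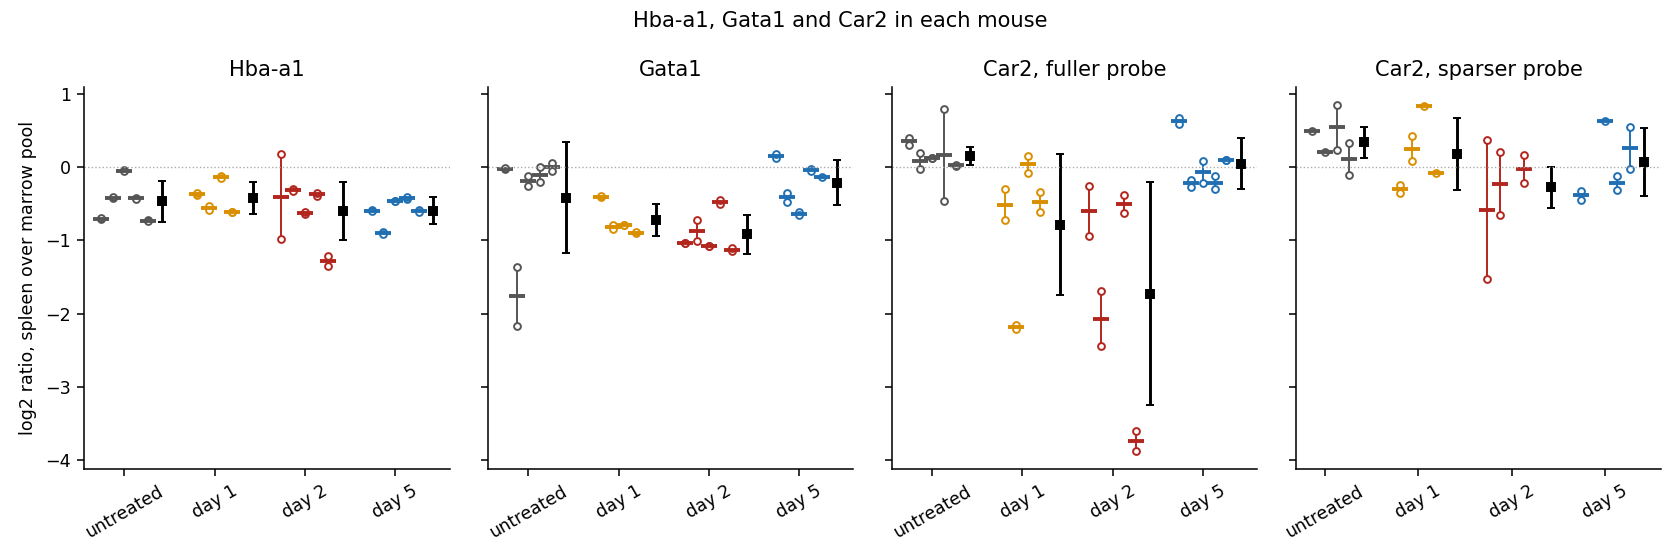
Log2 ratio of spleen over marrow pool (vertical axis) for the 4 probes of Hba-a1, Gata1 and Car2 by group (horizontal axis). Open circles are the 2 arrays of a mouse joined by a line, short bars are mouse means, and black squares with bars are the group mean and SD over mice. Hba-a1 means lie between -0.60 and -0.42 in all groups, 1 untreated mouse stands at -1.77 for Gata1, and the fuller Car2 probe reaches -3.74 on day 2.

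The Hba-a1 ratio was shared with other probes. A second globin probe, which the table pairs with more than 1 beta-globin gene, lay within 0.001 of Hba-a1 on the log2 scale on 33 of the 38 arrays. Ppia, which encodes cyclophilin A, and Rps23, a ribosomal protein gene, each did so on 25 arrays. Rpl6, another ribosomal protein gene, did so on 23 arrays, and Tpt1, which encodes translationally controlled tumour protein, on 20. On 32 arrays at least 1 of these last 4 genes, which are active in nearly all cells, had the same value as Hba-a1 to within that margin. Of 12359 other probes with values, 28 shared the Hba-a1 value on 10 or more arrays; 20 of these name a single gene and 7 of the 20 are ribosomal protein genes, where 65 of 10032 single-gene probes on the array are.

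Gata1 and Car2 had no such companions. No probe shared the value of Gata1, or of the fuller Car2 probe, on more than 2 arrays. The median number of other probes within 0.001 of the Hba-a1 value was 22 per array (0 to 52) and within 0.01 it was 79.5, a ratio of 3.61 where evenly spread values would give about 10. For Gata1 these medians were 5 and 60, a ratio of 12.0, and for Car2 11.5 and 121, a ratio of 10.5. The values of other probes were thus piled up at the Hba-a1 value and evenly spread around those of Gata1 and Car2.

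**Figure D2:**
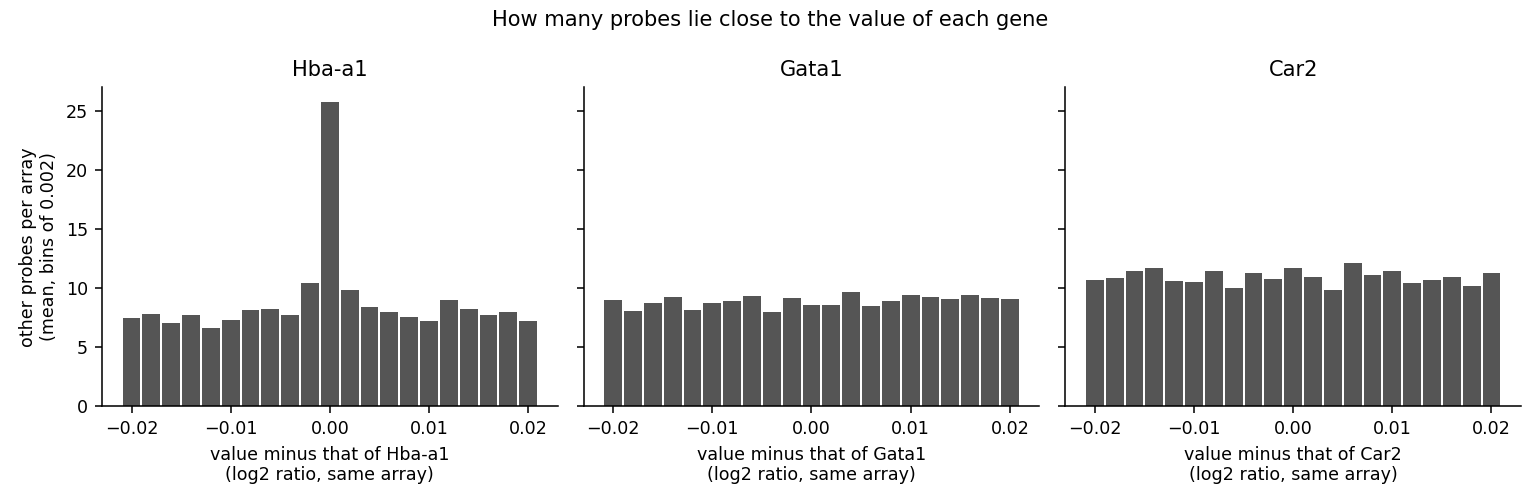
Mean number of other probes per array (vertical axis) by the difference of their value from that of Hba-a1, Gata1 or the fuller Car2 probe on the same array (horizontal axis, log2 ratio, bins of 0.002). The bin at 0 holds 25.8 probes for Hba-a1, against 6.63 to 10.4 in its other bins, and 8.62 for Gata1 and 11.7 for Car2, level with their neighbours.

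The group differences of these probes were also small. On day 2, when Hba-a1 had -0.13 ± 0.18 (SE), the log2 difference from untreated was above 0 in all 5: 0.14 ± 0.17 (SE) for Ppia, 0.060 ± 0.18 for Rpl6, 0.0090 ± 0.23 for Rps23, 0.27 ± 0.20 for Tpt1 and 0.055 ± 0.16 for the beta-globin probe. On day 5, when Hba-a1 had -0.13, these were -0.13, -0.12, -0.027, -0.00036 and -0.13. On the arrays where a globin probe and these genes gave 1 common ratio, the Hba-a1 ratio cannot be told apart from theirs. The deposited table holds ratios without the intensities behind them, and how the common value arose was not tested.

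The globin probes parted in 3 day 2 mice. Hba-a1 was more than 0.01 away from the beta-globin probe on 4 arrays, all from day 2. In day 2 mouse 5 Hba-a1 was -1.21 and -1.35 on the 2 arrays while the beta-globin probe was -0.68 and -0.67, and 0 other probes were within 0.001 of Hba-a1 against 17 and 13 of the beta-globin probe. In day 2 mouse 1 Hba-a1 was -0.98 on one array, where the beta-globin probe was -0.079, and 0.18 on the other, where both were the same. In day 2 mouse 2 it was the beta-globin probe that moved away, to -0.57 on one array against -0.33 for Hba-a1. Hba-a1 was therefore below the beta-globin probe on both arrays of only 1 of 5 day 2 mice.

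**Figure D3:**
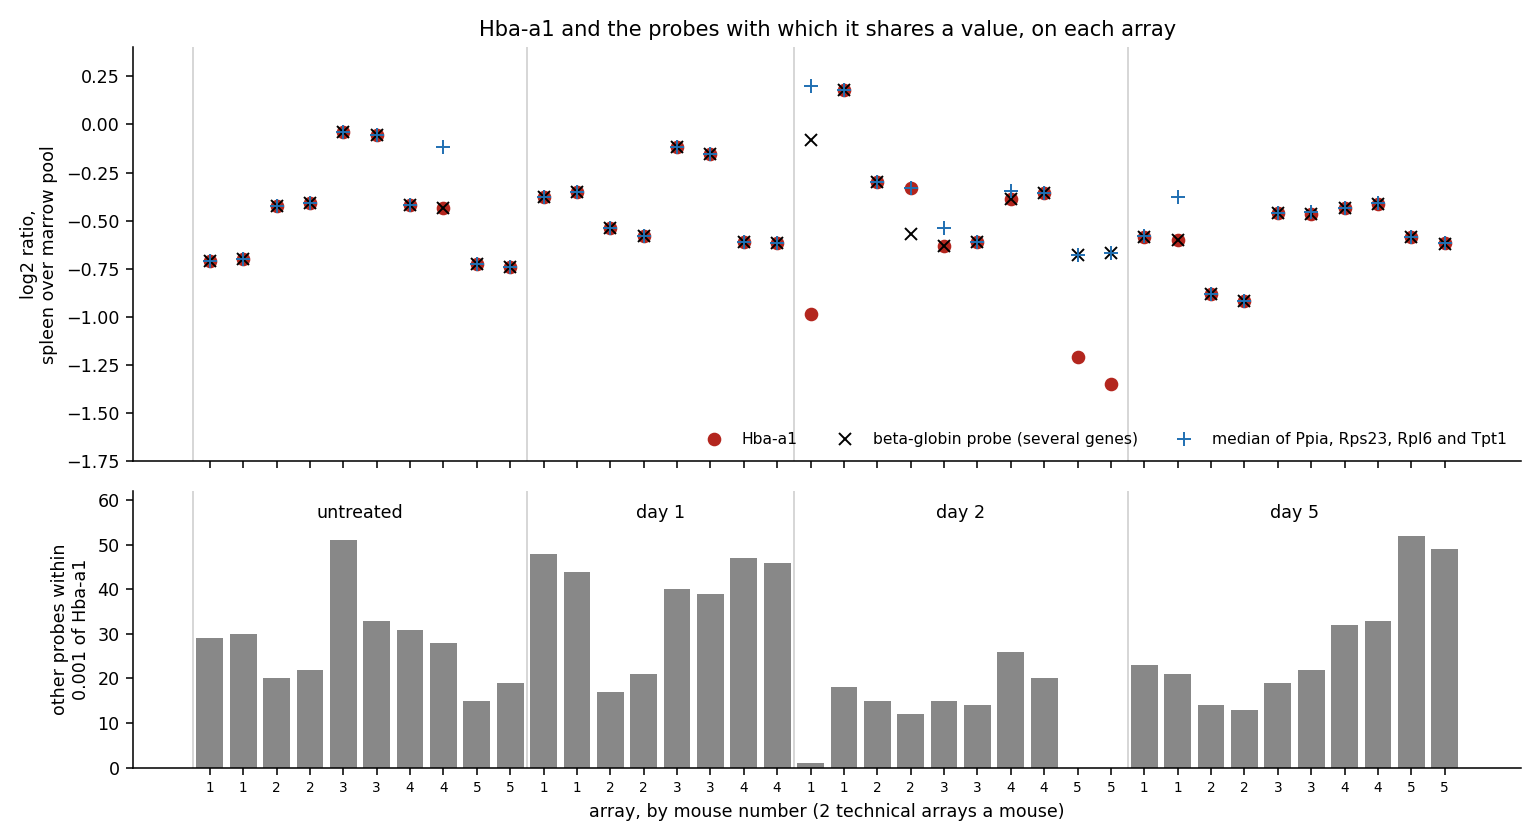
Top, log2 ratio of spleen over marrow pool on each of the 38 arrays for Hba-a1 (circles), the beta-globin probe (crosses) and the median of Ppia, Rps23, Rpl6 and Tpt1 (plus signs); bottom, the number of other probes within 0.001 of Hba-a1. Arrays are ordered by group and mouse, with 2 per mouse. The globin probes coincide on 33 arrays, and Hba-a1 stands well below the beta-globin probe on 3 day 2 arrays, where 0 or 1 other probes share its value.

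The embryonic globin genes had values of their own: none of Hba-x, Hbb-bh1 and Hbb-y lay within 0.001 of Hba-a1 on any array. On day 2 their log2 differences from untreated were 0.071 ± 0.11 (SE) for Hba-x, the zeta globin gene, -0.28 ± 0.18 for Hbb-bh1 and -0.55 ± 0.24 for Hbb-y. None of these 3 passed the limma threshold of a Benjamini-Hochberg adjusted p below 0.05 over 8319 probes on any day, and Hbb-y alone had an unadjusted p below 0.05 on day 2 (adjusted p = 0.19).

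The Gata1 probe was lower in the treated mice of days 1 and 2 than in 4 of the 5 untreated mice. In untreated mice 1 to 5 its log2 ratio was -0.019, -1.77, -0.19, -0.10 and -0.0014. In the day 1 mice it was -0.41, -0.81, -0.79 and -0.89, and in the day 2 mice -1.04, -0.86, -1.08, -0.47 and -1.13. The untreated mice other than mouse 2 were above every day 1 and every day 2 mouse, and mouse 2 was below all of them. With all 5 untreated mice the groups therefore overlapped. Mouse 2 was set apart after its value was seen, and how many other probes show such a split was not counted.

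On day 5 Gata1 was 0.16, -0.41, -0.63, -0.033 and -0.13 in mice 1 to 5, so that 3 of the 5 mice were within the range of the 4 upper untreated mice or above it. The group means were -0.21 ± 0.31 (SD, n = 5) on day 5, -0.42 ± 0.76 (n = 5) without treatment, -0.73 ± 0.22 (n = 4) on day 1 and -0.92 ± 0.27 (n = 5) on day 2, and neighbours in that order overlapped. The log2 difference from untreated was -0.31 ± 0.28 (SE) on day 1, -0.50 ± 0.26 on day 2 and 0.21 ± 0.26 on day 5. Day 5 was above day 2 by 0.71 ± 0.26.

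The untreated spread of Gata1 came from 1 mouse. Both arrays of untreated mouse 2 were low, -1.36 and -2.17, while the other 4 mice lay between -0.19 and -0.0014. Without that mouse the log2 differences were -0.65 ± 0.18 (SE) on day 1, -0.84 ± 0.17 on day 2 and -0.13 ± 0.17 on day 5, so that the day 5 value changed its sign. That mouse also stood far below the other 4 for 254 of 6553 probes (3.88%), against 11 to 174 probes for each of the others, and it had the second lowest correlation between its arrays. Rhd, a Rhesus blood group gene of the red cell membrane, was -2.12 in it against -0.46 to 0.14 in the other 4, while Alas2 was -0.29 against -0.58 to -0.064.

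On its fuller probe Car2 was the furthest below untreated of the 3 genes on days 1 and 2, and in those groups it differed most between mice. Its log2 ratio on that probe in untreated mice 1 to 5 was 0.35, 0.082, 0.13, 0.17 and 0.024. In the day 1 mice it was -0.51, -2.18, 0.037 and -0.48, and in day 2 mice 1, 2, 4 and 5 it was -0.60, -2.07, -0.50 and -3.74, with no value for mouse 3 on either array. The 4 measured day 2 mice were all below all untreated mice, a separation that 4.98% of all tested probes show, as were 3 of the 4 day 1 mice, and within each of those groups the values ran over more than 2 log2 units.

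On day 5 Car2 was 0.63, -0.22, -0.067, -0.21 and 0.099, on both sides of the untreated range. The group means were 0.15 ± 0.12 (SD, n = 5) without treatment, 0.047 ± 0.35 (n = 5) on day 5, -0.78 ± 0.97 (n = 4) on day 1 and -1.73 ± 1.52 (n = 4) on day 2, and neighbouring groups in that order overlapped. The log2 difference from untreated was -0.93 ± 0.50 (SE) on day 1, -1.88 ± 0.50 on day 2 (95% interval -2.91 to -0.84, 3.68-fold lower) and -0.10 ± 0.47 on day 5. These SEs and the interval rest on 1 spread shared by the 4 groups. The SDs of the groups ran from 0.12 to 1.52, so the interval is too narrow for the day 2 spread. Without day 2 mouse 5 the day 2 difference was -1.21, and without day 1 mouse 2 the day 1 difference was -0.47.

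The sparser Car2 probe had values on 25 of 38 arrays and gave smaller differences. On it untreated mice 2 to 5 had 0.49, 0.21, 0.54 and 0.11, and day 2 mice 1, 2 and 4 had -0.58, -0.22 and -0.020. The arrays of day 2 mouse 1 were at 0.37 and -1.53, further apart than any of the mouse means. The log2 difference from untreated was -0.16 ± 0.25 (SE) on day 1, -0.61 ± 0.27 on day 2 and -0.27 ± 0.25 on day 5, so both probes were lower on day 2 but disagreed on the size. Day 2 mice 3 and 5 had no value on this probe, and mouse 5 was the mouse with the lowest value on the fuller one.

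Of the 4 probes, 0 passed the limma threshold on day 1 (0 at an unadjusted p below 0.05), where 2.33% of all tested probes did in either direction. On day 2, 1 of 4 passed it (2 unadjusted), the fuller Car2 probe, against 8.31% of all tested probes, and on day 5, 0 of 4 did (0 unadjusted), against 0.0721%. Between day 5 and day 2 it was 1 of 4 (2 unadjusted), again that Car2 probe, against 5.30%, and between day 2 and day 1 it was 0 of 4 (0 unadjusted), against 0.0601%. The Car2 call on day 2 was lost in 5 of 30 alternatives, and that between day 5 and day 2 in 13 of 30. The genes were chosen on these same contrasts, so nothing is read from the counts.

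Other red cell genes fell on days 1 and 2. Of 79 genes on lists of globins, regulators, heme and iron, membrane and cytosol proteins, with Car2 added, 58 were on the array and 36 had enough values; without Hba-a1, Gata1 and Car2 these are 33. Of the 33, 9 fell and 0 rose by limma on day 1 (14 and 0 at an unadjusted p below 0.05), where 1.39% of all probes fell. On day 2, 15 fell and 0 rose (21 and 0 unadjusted), where 5.00% of all probes fell, and on day 5 none fell or rose (0 and 0 unadjusted). With Car2 the day 2 count was 16, and 8 after quantile normalization or 7 with arrays at equal spread; the day 1 count was 2 at equal spread and 4 without day 1 mouse 2. The median log2 difference over the 33 was -0.39 on day 1, -0.70 on day 2 and -0.11 on day 5, against 0.023, 0.0070 and 0.013 over all tested probes. The lists were drawn up with results of these mice known, and in bulk spleen RNA fewer cells of a type and less RNA per cell cannot be told apart.

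The heme and iron genes had 9 measured members, of which 3 fell on day 1 and 6 on day 2 by limma. Of all tested probes, 1.39% and 5.00% fell on those days. Alas2 was -0.064, -0.29, -0.21, -0.40 and -0.58 in untreated mice 1 to 5 and -4.41, -3.78, -4.67, -3.42 and -4.98 in the day 2 mice. These groups lie more than 2 log2 units apart, and the day 1 mice (-1.82, -2.77, -0.96 and -2.04) fall between them. Fech, which encodes ferrochelatase, the enzyme that puts iron into heme, fell by 1.5 ± 0.35 (SE) on day 2, adjusted p = 0.00932 by limma. Ppox, an enzyme near the end of heme synthesis, fell by 1.29 ± 0.31 (adjusted p = 0.0107), and Abcb10, a mitochondrial transporter, fell by 1.44 ± 0.42 (adjusted p = 0.0415). The calls of Ppox and Abcb10 were lost in 3 of 31 and 16 of 29 alternatives, both scalings among them. The day 2 calls of Tmem14c (-0.50 ± 0.15) and Tfrc (-0.86 ± 0.26) were lost in 18 of 31 and 17 of 28 alternatives. The day 1 calls of Alas2, Ppox and Tmem14c were lost in 3, 7 and 14 of 31.

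Of 9 membrane genes, 6 fell on day 1 and 6 on day 2 by limma, where 1.39% and 5.00% of all tested probes fell. Rhd was -4.09, -3.63, -4.58, -3.09 and -4.50 in the day 2 mice, below all untreated mice, on its fuller probe (-3.47 ± 0.39 (SE) from untreated). A second Rhd probe, with values on 33 arrays, gave smaller differences: -0.34 ± 0.37 on day 1 (adjusted p = 0.79 by limma) and -1.33 ± 0.37 on day 2 (adjusted p = 0.0311). The probes differed in size. Kel, the Kell blood group gene, was -2.41, -2.52, -3.61, -2.07 and -3.37 on day 2 and -0.28, -0.30, -1.19, -0.081 and -0.068 without treatment. Icam4, a red cell adhesion molecule, fell by 2.21 ± 0.37 (SE) on day 2 (adjusted p = 0.000503 by limma). Ank1, which encodes the ankyrin that ties the membrane to its skeleton, fell by 1.61 ± 0.36 (adjusted p = 0.00739). That call was lost in 3 of 31 alternatives: after quantile normalization, at equal spread and without the mice of low technical correlation. The day 2 calls of Ermap and Tspo2 were lost in 10 and 4 of 31, and those of Rhd, Kel and Icam4 in none. The day 1 calls of Icam4, Ank1, Tspo2 and Kel were lost in 10, 8, 8 and 1 of 31, and those of Rhd and Ermap in none. Xk and Rhag, also membrane genes, had 0.0026 ± 0.16 and -0.16 ± 0.29 on day 2 and did not pass the test.

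Of 7 cytosol genes, 0 fell on day 1 (3 at an unadjusted p below 0.05) and 2 on day 2, by limma, where 1.39% and 5.00% of all tested probes fell. From day 2 to day 5, 3 of the 7 rose, as 3.80% of all tested probes did. On day 2 the calls were those of 2 peroxidase genes. Prdx2, which encodes an abundant red cell peroxidase, fell by 1.83 ± 0.41 (SE, adjusted p = 0.00667) and Gpx1, the glutathione peroxidase gene, by 1.27 ± 0.23 (adjusted p = 0.00135). Bnip3l, which clears mitochondria from maturing red cells, had -0.70 ± 0.24 (adjusted p = 0.0753) and Mkrn1 -0.34 ± 0.14 (adjusted p = 0.143). Gpx1 lay within 0.001 of Hba-a1 on 4 arrays and Prdx2 on none.

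**Figure D4:**
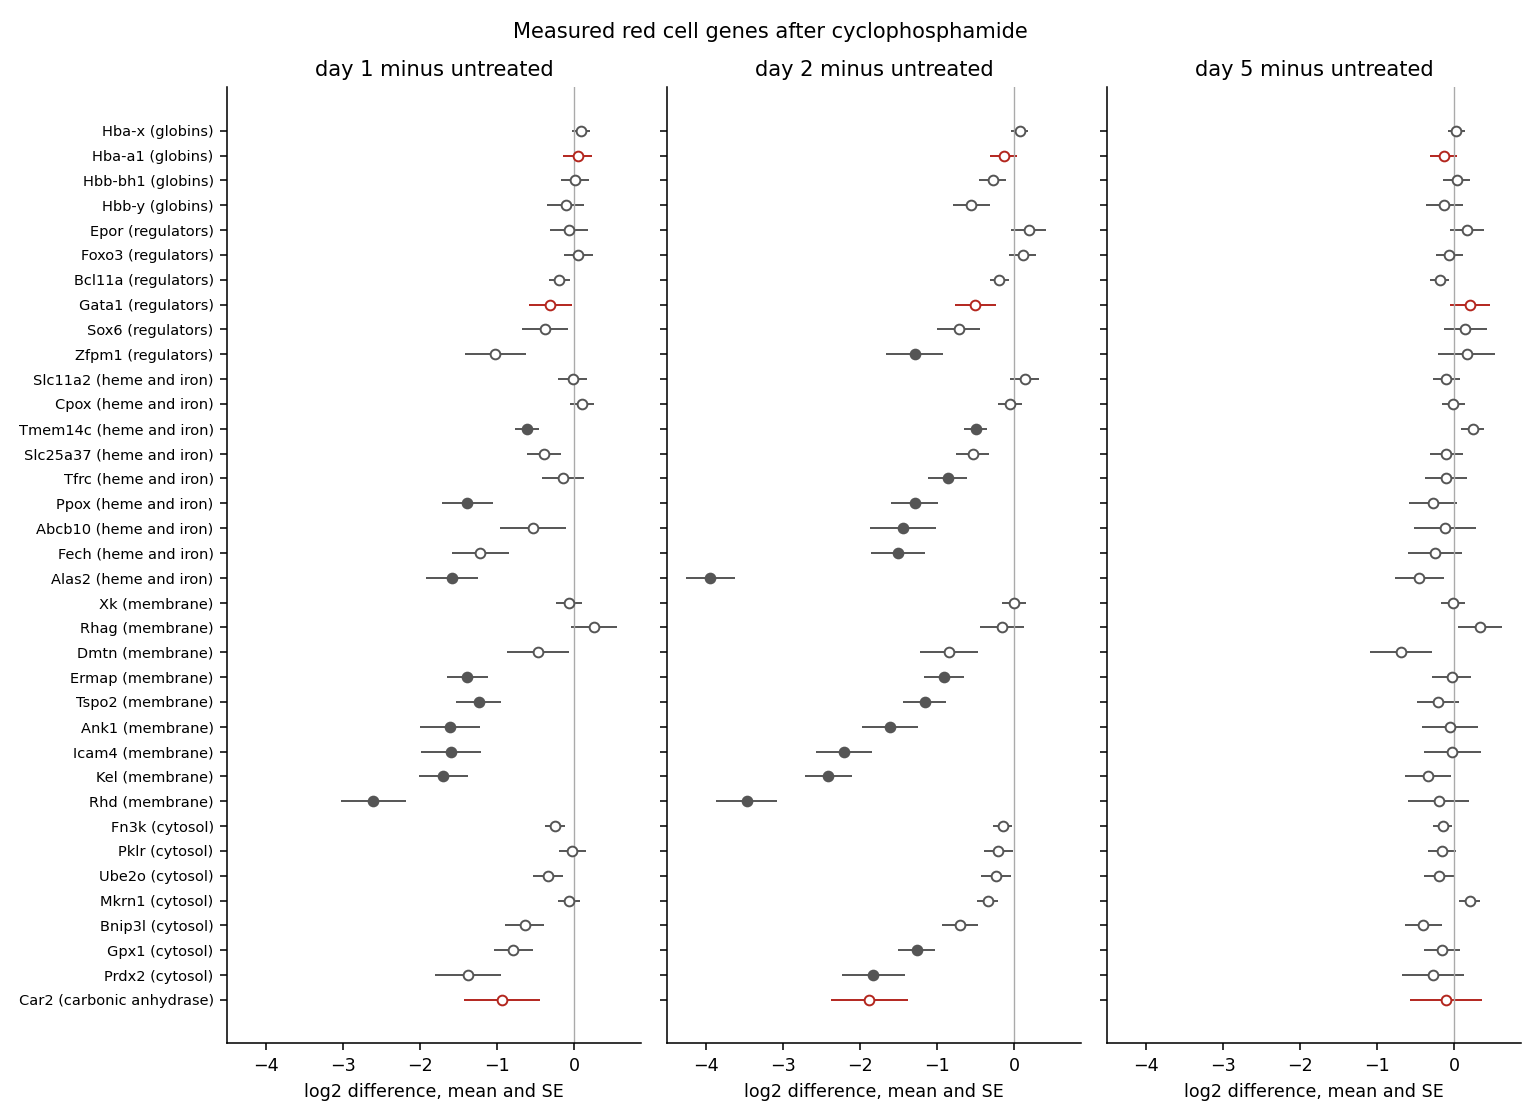
Log2 difference from untreated with its SE (horizontal axes, the same range in each panel) on days 1, 2 and 5 for the measured red cell genes (rows, with their list). Filled points passed an adjusted p of 0.05 by limma; Hba-a1, Gata1 and Car2 are drawn open and red whether or not they passed, since they were chosen on these contrasts. Alas2 at -3.94 and Rhd at -3.47 are the lowest on day 2, where Hba-a1 is at -0.13, and by day 5 no gene is called.

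Among the regulators that work with Gata1, 6 of 16 listed genes could be tested. Zfpm1, the cofactor gene, fell by 1.29 ± 0.37 (SE) on day 2 (adjusted p = 0.0344 by limma), a call lost in 14 of 31 alternatives, including the scaling to equal spread (adjusted p up to 0.109 where lost). Its day 1 value was -1.03 ± 0.40 (adjusted p = 0.215), and it rose by 1.46 ± 0.37 from day 2 to day 5 (adjusted p = 0.0244). The call of that rise was lost in 8 of 31 alternatives, both scalings among them. In the day 2 mice it was -2.46, -1.50, -0.81, -0.71 and -2.30 against -0.41 to 0.0040 without treatment, so the groups did not overlap. The other regulators that were measured, Epor (the erythropoietin receptor), Foxo3, Bcl11a (a repressor of embryonic globin) and Sox6, had day 2 values of 0.19 ± 0.23, 0.11 ± 0.18, -0.19 ± 0.13 and -0.72 ± 0.28 and did not pass the test. Klf1, a factor that activates the adult beta-globin gene, had values in 4 of 5 untreated, 4 of 4 day 1, 2 of 5 day 2 and 5 of 5 day 5 mice and was not tested, and neither was Tal1, with 2, 4, 4 and 4 mice.

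Car2 was 1 of 9 measured carbonic anhydrase genes. Of the other 8, Car4 fell and none rose on day 2. Car4, which encodes an enzyme anchored to the outer cell surface, fell by 0.99 ± 0.25 (SE) on day 1 (adjusted p = 0.0362 by limma) and by 1.65 ± 0.23 on day 2 (adjusted p = 8.42e-05), and rose by 1.45 ± 0.23 from day 2 to day 5 (adjusted p = 0.000559). The day 1 call was lost in 10 of 31 alternatives, the day 2 call in none and the call of the rise in 1, quantile normalization. Car1, the other cytosolic red cell form, had -0.019 ± 0.20 on day 1 and -0.066 ± 0.18 on day 2. The others had day 2 values of -0.15 ± 0.18 (Car3), 0.23 ± 0.16 (Car5a), 0.030 ± 0.20 (Car5b), 0.0081 ± 0.15 (Car8), 0.31 ± 0.16 (Car13) and -0.12 ± 0.21 (Car15), and none passed the test; Car13 had 0.46 ± 0.17 on day 1 (adjusted p = 0.19). The median of the 9 genes on day 2 was -0.066.

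Some mice were at the end of their group for several of these genes, though not for all. Among the day 2 mice, mouse 4 was the highest for Gata1 (-0.47), Car2 (-0.50), Zfpm1 (-0.71), Alas2 (-3.42), Rhd (-3.09) and Kel (-2.07), and mouse 5 was the lowest for Hba-a1 (-1.28), Gata1 (-1.13), Car2 (-3.74) and Alas2 (-4.98). Mouse 3 was the highest of that group for Fech (-0.21) and Car4 (-1.07), and mouse 5 was not the lowest for Zfpm1, Rhd or Kel. Among the day 5 mice, mouse 1 was the highest for Gata1, Car2, Zfpm1, Alas2, Rhd and Kel, at 0.16, 0.63, 0.23, 0.018, 0.028 and -0.26. Day 1 mouse 2 was the lowest of its group for Car2 (-2.18), Zfpm1 (-2.69), Alas2 (-2.77), Rhd (-3.90) and Kel (-2.49) but not for Gata1, Hba-a1 or Fech. Of these mice Hba-a1 was at the end of its group in day 2 mouse 5, where it left the common value, and not in the other 3.

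**Figure D5:**
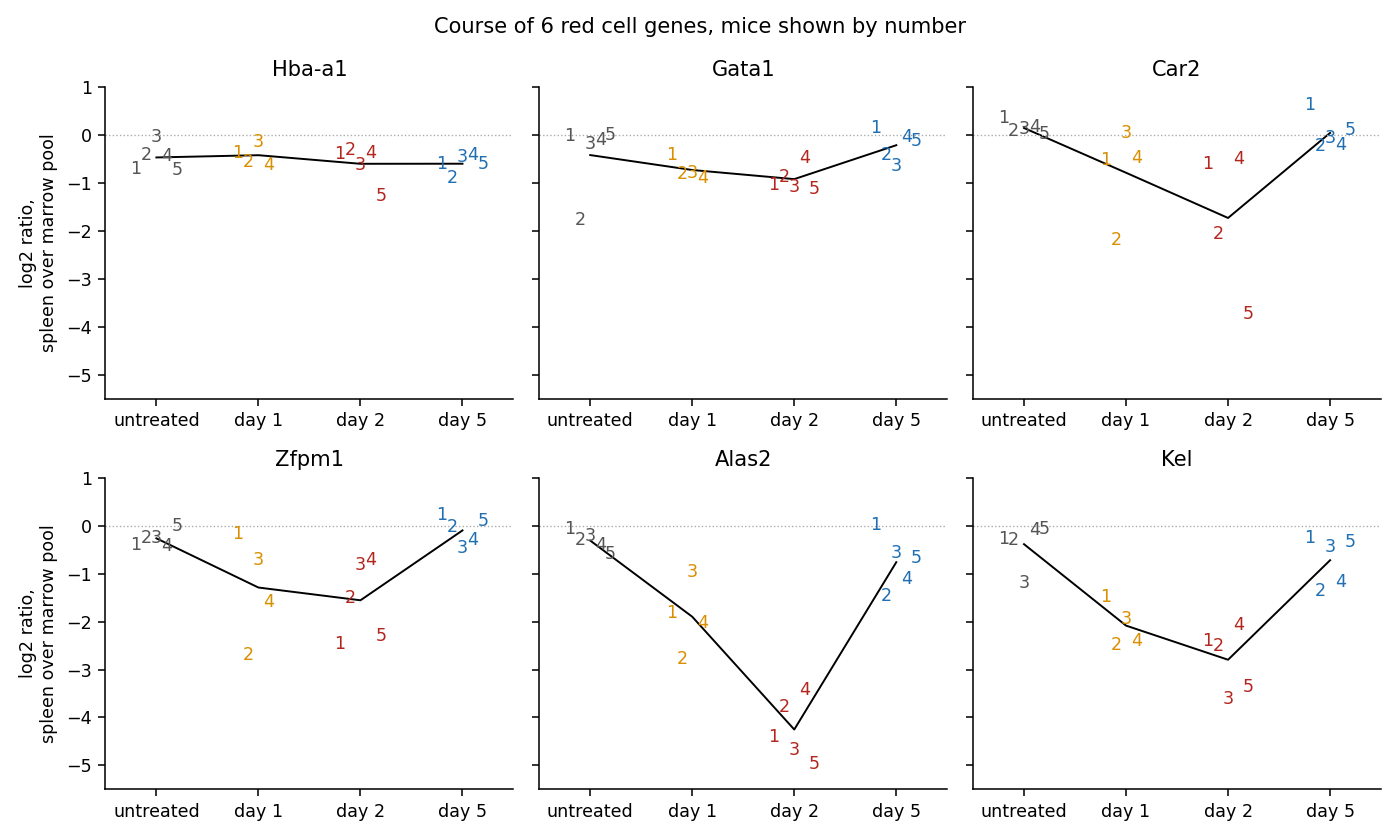
Log2 ratio of spleen over marrow pool (vertical axis) by group (horizontal axis) for Hba-a1, Gata1, the fuller Car2 probe, Zfpm1, Alas2 and Kel. Digits are mouse numbers within each group and the line joins group means. Alas2 reaches -4.98 and Kel -3.61 on day 2, whereas Hba-a1 lies above -1 in all mice but day 2 mouse 5.

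Genes of dividing cells moved alongside. Of 10 measured genes on that list, 5 fell on day 1 and 6 on day 2 by limma (6 and 6 unadjusted). Of all tested probes, 1.39% and 5.00% fell on those days. On day 5, 0 fell and 0 rose (0 and 1 unadjusted). From day 2 to day 5, 6 rose, as 3.80% of all tested probes did. The rest of the 10 did not pass the test on day 2. The median over the list, relative to the untreated mean, lay between -0.16 and 0.17 in the untreated mice, between -1.68 and -0.69 in the day 1 mice, between -2.09 and -0.78 in those of day 2 and between -0.30 and 0.31 in those of day 5. Day 1 mouse 2, day 2 mouse 4 and day 5 mouse 1, named above for red cell genes, were also the lowest of day 1, the highest of day 2 and the highest of day 5 here. Day 2 mouse 5, also named above, was not the lowest here. It had -1.67, and mouse 3, with values for 7 of the 10 genes, had -2.09. Cdk1, the kinase that starts mitosis, fell by 1.90 ± 0.17 (SE) on day 2, adjusted p = 3.25e-07 by limma. The part of dividing cells in the Gata1 and Car2 values was not tested.

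Markers of other cells that use Gata1 did not fall together. Of 6 megakaryocyte genes, whose cells also depend on Gata1, 0 fell and 1 rose on day 2 by limma (0 and 3 unadjusted), when 3.31% of all tested probes rose; the list's median was 0.45, 0.57 and 0.86 above untreated on days 1, 2 and 5. Itga2b, the platelet integrin alpha chain, rose by 0.85 ± 0.21 (SE) on day 2 (adjusted p = 0.0157 by limma) and 1.10 ± 0.20 on day 5 (adjusted p = 0.0396), calls lost in 5 and 21 of 30 alternatives. Of 8 genes of mast cells, basophils and eosinophils, 1 fell and 1 rose on day 2 by limma (2 and 1 unadjusted), when 5.00% of all tested probes fell. The day 2 difference was below 0 for 6 of the 8, with a median of -0.12. Tpsb2, a mast cell tryptase, fell by 0.97 ± 0.13 (adjusted p = 5.19e-05 by limma). Ccr3, the eotaxin receptor, rose by 1.37 ± 0.30 (adjusted p = 0.0056, lost after quantile normalization and at equal spread). Epx, of the same list, had -0.52 ± 0.21 (adjusted p = 0.157). Gata2, which precedes Gata1 in early progenitors, was not tested. Of the 3 measured genes on its list none passed the limma threshold on day 2 (0 unadjusted). Spi1, which encodes the myeloid factor PU.1, had 0.55 ± 0.28 on day 2 (adjusted p = 0.282), whereas Lyl1 had -0.41 ± 0.24 and Runx1 -0.26 ± 0.24.

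Of the markers of other spleen cells, 2 of 8 macrophage genes passed the test on day 2. Both rose, as 3.31% of all tested probes did. Over 8 macrophage genes the median was 0.76 on day 1, 0.60 on day 2 and 0.30 on day 5. Siglec1, a macrophage receptor, rose by 1.24 ± 0.15 (SE) on day 2 (adjusted p = 2.22e-05 by limma) and Mrc1, the mannose receptor, by 1.08 ± 0.31 (adjusted p = 0.0363, lost in 14 of 30 alternatives). Of 6 neutrophil, 4 T cell and 5 B cell genes none passed the limma threshold on day 1, 2 or 5 (on day 2, 1 of each list had an unadjusted p below 0.05), with day 1 medians of -0.61, 0.032 and 0.13 and day 2 medians of -0.47, 0.15 and 0.27. What share these cells have in the fall of the red cell ratios was not tested.

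The untreated mice can also be set against the marrow pool itself, a contrast on which the 3 genes were not chosen. Hba-a1 was lower in spleen than in the pool by 0.46 ± 0.12 (SE, n = 5) on the log2 scale, 1.38-fold, with an adjusted p of 0.0163 by limma, and was below 0 in 5 of 5 mice. The call was lost in 4 of 31 alternatives, 2 of which left out untreated mouse 1 or mouse 5. Of the probes that often shared its value, 4 of 5 were also called lower by limma, as 657 of all 8319 tested probes were. These were Ppia at -0.46 ± 0.12 (adjusted p = 0.012), Rpl6 at -0.42 ± 0.13 (adjusted p = 0.0318), Tpt1 at -0.52 ± 0.14 (adjusted p = 0.018) and the beta-globin probe at -0.47 ± 0.11 (adjusted p = 0.00795), while Rps23 had -0.37 ± 0.16 (adjusted p = 0.148). The 5 were picked for that shared value, so their calls largely repeat the Hba-a1 call and add no separate evidence. Where the ratio was common, the Hba-a1 difference from the pool cannot be told apart from theirs.

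Gata1 had -0.42 ± 0.18 (SE), adjusted p = 0.150 by limma, and -0.078 ± 0.12 without untreated mouse 2, so no difference from the pool was detectable. Car2 had 0.15 ± 0.33 (adjusted p = 0.81, 95% interval -0.54 to 0.84) on the fuller probe and 0.34 ± 0.18 (adjusted p = 0.23, n = 4) on the sparser one. On the fuller probe all 5 untreated mice were above 0, between 0.024 and 0.35. The SE there rests on the spread shared by the 4 groups and is larger than the SD of the untreated mice, 0.12. Its p-value and interval therefore do not measure the untreated spread. In all, 1 of the 4 probes passed the threshold (2 unadjusted), where 12.7% of all tested probes did. No array had the dyes swapped, so these ratios, unlike the differences between groups, are open to dye bias, and the test leaves out the pool's own spread.

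Across mice, the single-gene probes most like Hba-a1 were Pcdh10, Afm, Ppia, Rpl6 and Chaf1b, with Pearson r of 0.78, 0.76, 0.76, 0.75 and 0.75 over 17 to 19 mouse means, of 5479 probes compared. Ppia and Rpl6, which share its value on 25 and 23 arrays, had the highest Spearman rho of the 5, 0.94 and 0.90, and r of 0.81 and 0.79 without the 2 mice farthest from the median of Hba-a1. For Gata1 the 5 were Paics, an enzyme of purine synthesis, Mettl27, Cdca4, Vmn1r54 and Sema4d, with r of 0.89 to 0.86 over 19 mice; without the 2 farthest mice r was 0.94 for Paics and 0.78 to 0.79 for the others. For Car2 they were Mcm6, a subunit of the replication helicase, Atp6v1d, a proton pump subunit, Kif22, a mitotic kinesin, Josd2 and Ube2l6, with r of 0.85 to 0.84 over 16 to 18 mice. Without the 2 farthest mice r fell to 0.33 for Kif22 and was 0.68 to 0.85 for the other 4. These values share the marrow pool and the group means, and are given as a description with no test. No gene of the globin, heme and iron or red cell membrane lists was among the 15. Those lists had only 4, 9 and 9 tested genes, where 5402 to 5479 probes were compared, so nothing is read from their absence. The beta-globin probe is paired with several genes and so was not ranked.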

How the data were processed

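The authors deposited 1 table of log2 ratios, spleen RNA (Cy5) over a bone marrow pool (Cy3), per the labels; base 2 was assumed. The log base, background correction, spot filter and normalization are not given in the sources used. The array medians lie between -0.0212 and 0.0132 and the values between -6 and 6. Per the labels' protocols RNA was amplified before labelling. Of all values 63.2% are present. No slide or scan date is given, so no batch was tested.

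The 2 technical arrays of a mouse were averaged, and limma 3.58.1 (lmFit and eBayes, R 4.3.3) was run on the 8319 probes (61.9%) that had a value for 3 or more mice per group, with 1 spread shared by the 4 groups, with Benjamini-Hochberg adjustment over all probes at 0.05. Nothing was imputed. The number of mice limits the precision. Probes with 1 gene number 10032, with several 170 and with none 3241; 10028 symbols were updated through a RefSeq table (GRCm38.p6) and 4 kept. A gene with several probes is represented by the one with most mouse values, ties by the smaller spread.

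The members and gene lists were chosen with earlier results of these data known. Named by rule are all probes of the 3 genes; every measured globin, regulator and carbonic anhydrase; up to 4 genes of each other red cell list and up to 3 of each other list by the day 2 p-value; and the 5 probes most like each gene over at least 16 mice. The rule applies to the text: a few genes beyond it (Ppia, Rps23, Rpl6, Tpt1, Xk, Rhag, Tmem14c, Tfrc, Ermap, Tspo2, Spi1, Klf1, Tal1, and Ms4a1 and Ltf for the direction of the ratio) were named after their values were seen. Values within 0.001 were counted as shared. Other scalings, filters, technical arrays, weights, a block on mouse number and each mouse left out were tried. The steps were tested on simulated data. Figures used matplotlib 3.10.9.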

Additional observations from a re-analysis of the deposited data

Results flagged for a closer look

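The lowest untreated mouse for Gata1, mouse 2 at -1.77 (log2 ratio, mean of 2 arrays), lies far from the other 4: its gap to the next mouse is 0.894 of the whole range of the 5, above the critical value of 0.71. Of 19 groups of 4 or 5 mice examined for the probes of Hba-a1, Gata1, Car2 and the beta-globin probe, 1 was found, and chance gives about 1 in 20. The same mouse was far below the other 4 for 3.88% of 6553 probes. The cause was not tested.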

How the results depend on the processing

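The day 5 value of Gata1 ran from -0.16 to 0.31 and so changed sign. Hba-a1 against the marrow pool ran from -0.57 to -0.40, Gata1 on day 2 from -0.85 to -0.35 and Car2 (fuller probe) on day 2 from -2.32 to -1.21. The counts below are probes past an adjusted p of 0.05, and the causes of their shifts were not tested. Day 1 (194) gave 117 at equal spread, 452 with the mouse as a random effect, 350 with array weights, 123 without the 3 mice of low technical correlation and 83 with a fold of at least 2. Day 2 (691) gave 338 after quantile normalization, 353 at equal spread, 449 with only the groups compared, 450 without the 3 mice and 194 with the fold; 60.2% of day 2 calls were lower, and 71.4% at equal spread. Day 5 (6) gave 0 at equal spread and on technical array 2, 24 with the random effect, 11 with no filter and 1 with only the groups compared or without the 3 mice. Day 2 against day 1 (5) gave 0 after quantile normalization and at equal spread, 27 with the random effect, 8 with no filter, 20 with weights and 1 with only the groups compared. Day 5 against day 2 (441) gave 83 after quantile normalization, 144 at equal spread, 730 with the random effect and 148 with the fold; 28.3% were lower, and 13.2% at equal spread. The marrow contrast (1056) gave 614 with only the untreated mice, 655 without the 3 mice and 177 with the fold. Red cell genes that fell numbered 9 on day 1, 2 at equal spread, 5 on technical array 1 and 4 without the 3 mice, and 16 on day 2, 8 after quantile normalization, 7 at equal spread, 10 on technical array 1 and 9 without the 3 mice.

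Leaving out each mouse gave 109 to 224 calls on day 1 (fewest without day 1 mouse 4), 501 to 690 on day 2, 0 to 6 on day 5, 3 to 11 for day 2 against day 1, 299 to 479 for day 5 against day 2 and 775 to 1156 against marrow; red cell genes that fell were 4 to 11 on day 1 (fewest without day 1 mouse 2) and 11 to 16 on day 2, and 0 on day 5. Mouse numbers do not pair the groups: with group means removed, 27 same-numbered pairs had a mean correlation of 0.00199, 7 of them above 0.1. A replicate block on mouse number gave 178, 601 and 0 calls on days 1, 2 and 5, 3 for day 2 against day 1, 383 for day 5 against day 2 and 975 against marrow. Missing values limit Car2, Klf1 and most other regulators, and the depth or intensity behind a ratio is unknown.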
